A study of Mus musculus with 35 samples.

Results

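Microglia sorted from the spinal cords of mice recovering from induced motor neuron disease were compared with microglia from mice at an early stage of the same disease, using 14 of the 35 RNA sequencing libraries of the series. The 14 libraries were chosen by their phenotype label alone, 7 labelled recovery and 7 labelled early disease. All 14 mice were rNLS8 mice, labelled (+/+), of a mixed C57BL/6J X C3HeJ F1 strain. They carried NEFH-tTA, which drives the doxycycline-repressed activator from the promoter of the neurofilament heavy chain and therefore in neurons, and tetO-hTDP43, a human TDP-43 gene that the activator switches on when doxycycline is withdrawn. The microglia themselves are thus not the cells the transgene targets. Recovery mice had been off doxycycline for 6 weeks and then back on it for 1 week. Early disease mice had been off doxycycline for 2 weeks and were still off it. Each group held 3 males and 4 females. Wild-type mice, labelled (-/-), had the same diets, 3 mice after 6 weeks off and 1 week on and 4 mice after 2 weeks off. The remaining wild-type mouse had been off doxycycline for 6 weeks and was not returned to it. A further 7 rNLS8 mice, labelled late disease, had been off doxycycline for 6 weeks, and 6 rNLS8 control mice had never been taken off it. Every mouse had been kept on doxycycline until young adulthood.

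A deposited table lists a date code for each library, without saying which step it dates. The recovery libraries all carried the date code 0803, while early disease libraries carried 1019 (2 libraries), 1102 (3 libraries) and 1130 (2 libraries). The 2 groups also differed in the diet at collection, in the weeks since doxycycline was first withdrawn and so in age. Transgene state, diet, age and date code cannot be told apart in a comparison of these 14 libraries. Estimated counts assigned to genes summed to 16.08 to 20.41 M (mega) counts in recovery libraries and 15.44 to 20.02 M in early disease libraries. The share of TPM, a length-corrected share of all transcripts, that lay outside the deposited table was 5.90 ± 1.77% in recovery and 4.35 ± 1.06% in early disease (SD, n = 7 each). Levels below are CPM, counts divided by the scaled library size in M, and are not corrected for gene length, so they are compared between groups and not between genes.

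Microglia are the resident macrophages of the spinal cord. In the healthy cord they express a homeostatic set of genes that includes the purinergic receptor P2ry12 and the membrane protein Tmem119. Near damaged or degenerating neurons many of them pass into a state known as disease-associated, marked by the secreted protein osteopontin (Spp1), apolipoprotein E (Apoe), the integrin Itgax and the pattern receptor Clec7a, and they can present peptides to helper T cells on class II molecules of the major histocompatibility complex. Neutrophils and blood monocytes share the surface markers CD11b and CD45 on which these cells were sorted.

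Osteopontin and the class II chains H2-Ab1 and H2-Aa were among the genes with the smallest p-values in the comparison. The class II chain H2-Eb1 was also higher, at a larger p-value. The promoters of H2-Aa, H2-Eb1 and Spp1 are shown because they hold the same 8 letters at a similar distance from the start. CTGATTGG is the Y box of class II promoters, the site where the NF-Y complex is known to bind. Sequences are the 250 bases before the transcription start from RefSeq on build GRCm38.p6, 5′ to 3′ along the gene's strand, with the Y box in capitals.
H2-Aa, chr17:34287824-34288073, minus strand: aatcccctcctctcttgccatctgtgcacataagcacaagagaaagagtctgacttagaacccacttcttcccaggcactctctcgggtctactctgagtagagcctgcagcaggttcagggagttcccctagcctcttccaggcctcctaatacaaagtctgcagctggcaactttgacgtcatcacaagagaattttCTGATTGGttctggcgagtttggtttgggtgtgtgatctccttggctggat
H2-Eb1, chr17:34305617-34305866, plus strand: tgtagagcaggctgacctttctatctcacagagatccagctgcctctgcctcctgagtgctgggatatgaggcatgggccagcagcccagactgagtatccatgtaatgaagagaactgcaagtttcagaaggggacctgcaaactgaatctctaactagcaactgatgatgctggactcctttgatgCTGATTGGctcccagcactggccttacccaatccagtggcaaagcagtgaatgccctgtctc
Spp1, chr5:104434861-104435110, plus strand: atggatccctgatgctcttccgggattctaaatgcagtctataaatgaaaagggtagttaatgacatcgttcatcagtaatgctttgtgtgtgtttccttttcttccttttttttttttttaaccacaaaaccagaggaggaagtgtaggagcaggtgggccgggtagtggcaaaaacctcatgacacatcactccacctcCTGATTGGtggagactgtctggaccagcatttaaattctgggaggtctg
The first letter of the motif lay 51 bases before the start in H2-Aa, 62 in H2-Eb1 and 49 in Spp1. Searched on both strands, CTGATTGG was present in 3.83% of the 32851 RefSeq promoter windows of this length. At least one window held it for 6 of 78 genes that were higher in recovery and had a window (7.69%), against 640 of 9644 tested genes (6.64%), so genes higher in recovery did not stand apart in holding it. H2-Ab1 is named only.

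Both groups had the transcripts of microglia at high level. P2ry12 ranged over 5439, 7168 and 8139 CPM (lowest, median and highest library) in recovery and 5709, 7286 and 9247 CPM in early disease. Tmem119 was at 6213, 6747 and 8154 CPM in recovery and 5725, 6568 and 7554 CPM in early disease. The ranges of the 2 groups overlapped for both genes, with log2 fold changes of recovery over early disease of -0.12 ± 0.17 for P2ry12 and 0.11 ± 0.10 for Tmem119 (± SE, adjusted p = 0.882 and 0.775, edgeR quasi-likelihood test). Of the 32 homeostatic genes tested, 0 were called by edgeR and 0 by DESeq2, with a median log2 fold change of -0.03 against -0.01 over all tested genes. At an unadjusted p under 0.05, 2 of the 32 were lower, beside 3.60% of all genes. Sall1, a transcription factor that holds microglial identity, was at 391.9 to 459.2 CPM in recovery libraries and 474 to 590 CPM in early disease libraries with no overlap. Its log2 fold change of -0.34 ± 0.17 did not pass the test (adjusted p = 0.469). It passed in a fit of the 14 libraries alone (adjusted p = 0.00953).

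Recovery microglia differed from early disease microglia mainly by genes that were higher. Of 13501 genes tested, 104 were higher (0.770%) and 3 were lower (0.0222%) at an adjusted p under 0.05, 107 in all (0.793%), with group and sex fitted over the 35 libraries together. Group was the phenotype label in that fit. The 14 control libraries thus formed 1 group although they differ in genotype, diet and date code, and their differences enter the spread behind its p-values. Of the higher genes, 69 were at least 2-fold higher, and none of the lower ones reached 2-fold. The 7 and 7 libraries did not overlap for 153 genes that were higher in every recovery library (1.13%) and for 37 that were lower (0.274%). A fit of the 14 libraries alone, which estimates the spread without the other groups, called 471 genes higher (3.77%) and 132 lower (1.06%) of 12493, and it called all 99 of the calls above that it tested. On the authors' TPM scale, where the median of all genes shifted by -0.16, limma on log2(TPM + 1) called 128 higher and 24 lower. The number of calls depended on single libraries. It was 38 without early disease 5, 41 without early disease 6 and 71 without early disease 8, and 54, 56, 61 and 63 without Recovery 3, 9, 2 and 7, each left out alone.

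Disease-associated genes made up the largest group of microglial genes among the calls. Of 30 tested members, 12 were called higher and 0 lower, beside the 0.770% of all genes, and 28 of 30 were higher at an unadjusted p under 0.05, beside 7.27% of all genes. The fit of the 14 libraries alone called 26 of 30, beside 3.77% of all genes higher, and DESeq2 21 of 31, beside 226 of 25565 genes. All 30 had a log2 fold change above 0, and their median was 1.29. Summed over the list, recovery libraries held 58520 to 71024 CPM and early disease libraries 31245 to 51153 CPM, with no overlap. The cathepsin gene Ctsd gave 59.6% of that sum over the 14 libraries, so the sum mostly follows 1 gene. Ctsd was at 32960 to 43386 CPM in recovery and 18568 to 35034 CPM in early disease, with overlap. Its log2 fold change of 0.47 was not called by edgeR (adjusted p = 0.113). The list was assembled with earlier results of these data known, so its direction is a description of these libraries. Against the early disease libraries of date codes 1019, 1102 and 1130 alone, the list median was 0.85, 1.501 and 1.78. Of 31 tested, 0, 2 and 1 members were called, and 7, 28 and 24 were higher at an unadjusted p under 0.05. Over all genes, 463 of 14981, 1111 of 14424 and 1040 of 14984 were at that p in either direction.

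Spp1, the secreted phosphoprotein osteopontin, was at 306, 849 and 1166 CPM in recovery and 8.14, 49.7 and 153 CPM in early disease. Every recovery library was above every early disease library, with Recovery 7 the lowest of its group and early disease 3 the highest of its own. The log2 fold change was 3.60 ± 0.56 (adjusted p = 0.0012). Itgax, the integrin subunit CD11c, was at 71.8, 83.9 and 103 CPM in recovery and 5.81, 24.5 and 61.0 CPM in early disease. Clec7a, the beta-glucan receptor dectin-1, was at 113, 159 and 279 CPM in recovery and 12.6, 25.3 and 82.5 CPM in early disease. Neither gene overlapped between the groups, and their log2 fold changes were 1.80 ± 0.39 for Itgax (adjusted p = 0.0166) and 1.99 ± 0.44 for Clec7a (adjusted p = 0.0206).

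Growth factors of this set were also higher. Igf1, insulin-like growth factor 1, was at 2.96, 11.4 and 13.8 CPM in recovery and 0.246, 0.465 and 2.71 CPM in early disease. It did not overlap and rose by 3.26 ± 0.82 on the log2 scale (adjusted p = 0.0471). Csf1, the ligand of the microglial survival receptor Csf1r, was at 50.6, 81.4 and 120 CPM in recovery and 24.9, 30.0 and 72.6 CPM in early disease. The groups overlapped through early disease 3, and Csf1 rose by 1.15 ± 0.27 (adjusted p = 0.0297). The receptor Csf1r itself had a log2 fold change of -0.07 ± 0.09 (adjusted p = 0.852).

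Lectins and protease genes followed the same direction. Cst7, the protease inhibitor cystatin F, was at 12.5, 44.2 and 154 CPM in recovery and 2.06, 7.20 and 17.6 CPM in early disease, overlapping only through Recovery 7 and early disease 4, and rose by 2.85 ± 0.52 (adjusted p = 0.00386). Lgals3, galectin-3, was at 23.3, 47.0 and 68.9 CPM in recovery and 3.67, 7.45 and 27.8 CPM in early disease, and rose by 2.02 ± 0.38 (adjusted p = 0.00558) with overlapping groups. Ch25h, which makes 25-hydroxycholesterol, rose by 3.17 ± 0.70 (adjusted p = 0.0195). The cathepsin genes Ctsb and Ctsz moved less, by 0.56 ± 0.12 and 0.52 ± 0.11 (adjusted p = 0.0127 and 0.0115), and did not overlap. The tetraspanin Cd63 was at 658, 693 and 908 CPM in recovery and 189, 343 and 483 CPM in early disease, again without overlap, and rose by 1.04 ± 0.26 (adjusted p = 0.0395). The pyrophosphate transporter Ank rose by 1.12 ± 0.27 (adjusted p = 0.0327).

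Apoe, the lipid carrier that leads many disease-associated signatures, was at 1034, 2381 and 3234 CPM in recovery and 62.8, 345 and 521 CPM in early disease. Its lowest recovery library, Recovery 9, was above its highest early disease library, early disease 8. Its log2 fold change of 2.82 ± 0.74 nonetheless did not pass over all 35 libraries (adjusted p = 0.0573) and passed in the 14 libraries alone (adjusted p = 0.00342). The receptor tyrosine kinase Axl was at 208, 263 and 389 CPM in recovery and 31.1, 110 and 226 CPM in early disease, with a log2 fold change of 1.52 ± 0.39 (adjusted p = 0.0528). Fabp5, a fatty acid binding protein, had 3.09 ± 0.80 (adjusted p = 0.0544) and Cybb, the catalytic subunit of the NADPH oxidase, 1.62 ± 0.42 (adjusted p = 0.0564). Trem2, the lipid-sensing receptor upstream of this state, was at 1328, 1450 and 1832 CPM in recovery and 933, 1262 and 1492 CPM in early disease, and its log2 fold change of 0.32 ± 0.14 did not pass (adjusted p = 0.344).

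**Figure D1:**
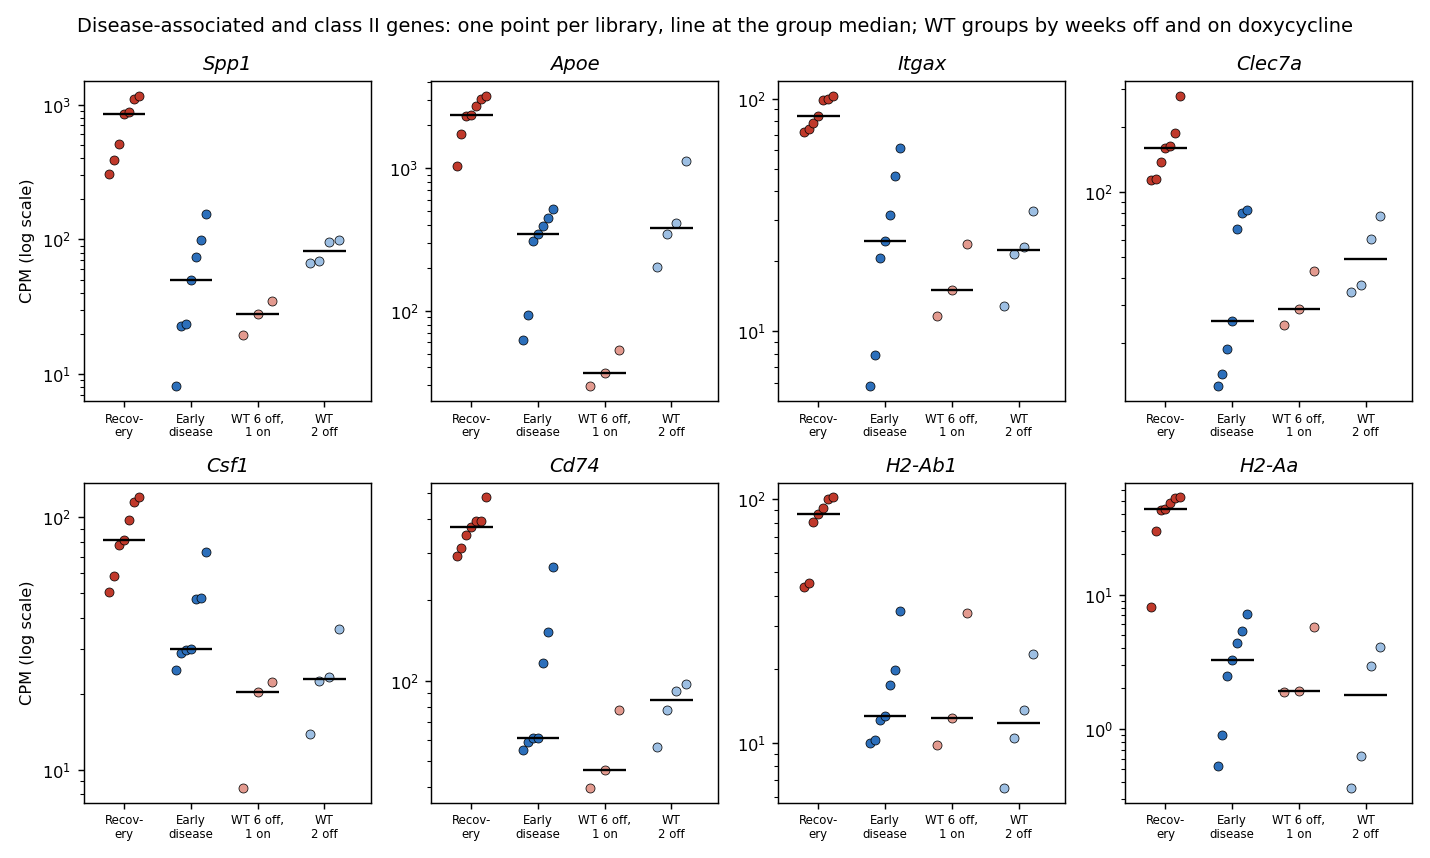
CPM on a log scale for 5 disease-associated and 3 class II genes, with 1 point per library and a line at each group's median, in recovery (7), early disease (7), wild-type mice 6 weeks off and 1 week on doxycycline (3) and wild-type mice 2 weeks off (4). Recovery libraries lie above all early disease libraries in every panel except Csf1, where early disease 3 reaches 72.6 CPM.

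The invariant chain and the class II chains rose together. Cd74, the invariant chain that guides class II molecules to the endosome, was at 291, 373 and 482 CPM in recovery and 55.0, 61.4 and 265 CPM in early disease. H2-Ab1, the class II beta chain of the A molecule (chr17:34257689-34269419), was at 43.4, 86.7 and 102 CPM in recovery and 9.93, 12.8 and 34.5 CPM in early disease. H2-Aa, its alpha chain, was at 8.04, 43.1 and 53.1 CPM in recovery and 0.532, 3.23 and 7.11 CPM in early disease. None of the 3 genes overlapped between the groups, although early disease 4 had the highest level of its group for each of them. Their log2 fold changes were 1.80 ± 0.29 for Cd74, 2.26 ± 0.37 for H2-Ab1 and 3.61 ± 0.62 for H2-Aa (adjusted p = 0.0012, 0.0012 and 0.00195).

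H2-Eb1, the beta chain of the E molecule, was at 1.70, 16.6 and 21.1 CPM in recovery and 0.151, 1.59 and 3.87 CPM in early disease. Recovery 7 was the single recovery library within the early disease range, and the same library was the lowest of its group for H2-Aa. H2-Eb1 rose by 3.00 ± 0.66 (adjusted p = 0.0195). These 4 genes were the only members called of the 25 antigen presentation genes tested, beside the 0.770% of all genes. Of the 25, 23 had a log2 fold change above 0 and 13 were higher at an unadjusted p under 0.05, beside 7.27% of all genes, and their median was 0.41. DESeq2 called 7. The class I heavy chain H2-K1 had a log2 fold change of 0.80 (adjusted p = 0.103) and its light chain B2m 0.56 (adjusted p = 0.162). Without Recovery 3 and Recovery 9, the recovery libraries richest in neutrophil markers, 3 of the 4 stayed past the threshold. H2-Eb1 did not, with a log2 fold change of 2.77 (adjusted p = 0.111).

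Neutrophil genes had the largest median log2 fold changes of the lists and were uneven between mice. Of 13 tested genes for neutrophil granule proteins, 6 were higher and 0 lower, beside the 0.770% of all genes higher, with a median log2 fold change of 5.68. Of 13 tested genes for neutrophil receptors and mature-stage products, 4 were higher and 0 lower, with a median of 5.44, and 5 of 17 monocyte genes were higher, with a median of 2.00. In the 14 libraries alone the calls were 13, 9 and 7, beside 3.77% of all genes higher. The 3 lists hold 19, 20 and 21 genes, and members that did not pass the filter on low counts were not tested. A gene can pass that filter through the recovery libraries alone, so the medians describe only the members that passed. With no filter, 9 of 19, 10 of 19 and 7 of 21 were called higher, beside 158 of 25565 genes. Many early disease libraries had 0 counts for these genes, so the fitted folds depend on the small count that the fit adds and are given with their levels. In bulk libraries of sorted cells, more cells of a type and more RNA per cell cannot be told apart.

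Summed over the granule list, the recovery libraries were at 669, 1883 and 6220 CPM and the early disease libraries at 178, 356 and 779 CPM. Recovery 3, Recovery 9 and Recovery 7 were far above the rest with 6220, 5728 and 4178 CPM, while Recovery 4 was within the early disease range at 669 CPM. The monocyte list had the same 3 libraries at the top, with 700, 687 and 459 CPM in Recovery 9, Recovery 3 and Recovery 7 and 96.2 to 206 CPM in the other 4 recovery libraries, against 32.7 to 70.7 CPM in early disease. Both neutrophil lists hold genes that microglia or other macrophages also express. Lyz2, a lysozyme gene of macrophages and neutrophils, gave 46.1% of the summed granule level over the 14 libraries and was at 562 to 2066 CPM in recovery and 177 to 710 CPM in early disease, where S100a9 was at or near 0 in 4 of 7 libraries.

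**Figure D2:**
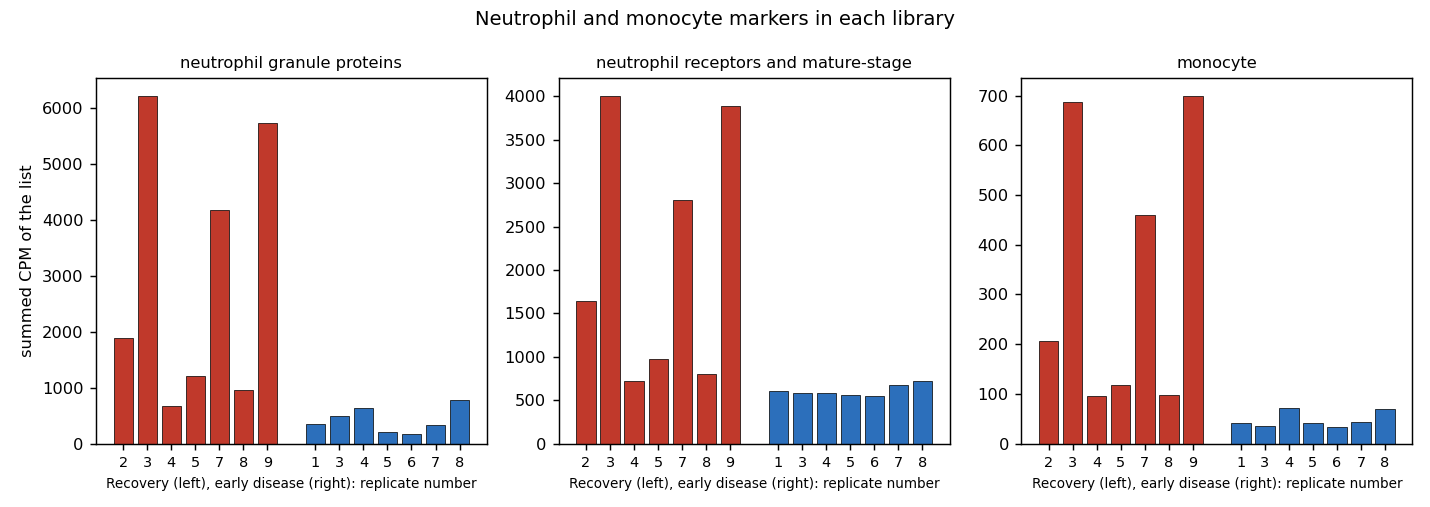
Summed CPM of 3 marker lists in each of the 7 recovery libraries (red, left) and 7 early disease libraries (blue, right), labelled by replicate number. Recovery 3, 7 and 9 stand above all other libraries in each panel, and Recovery 4 lies within the early disease range for the 2 neutrophil lists.

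S100a9, a subunit of the calprotectin complex of neutrophils, was at 37.9, 342 and 1407 CPM in recovery and 0, 0.0547 and 50.2 CPM in early disease, where 3 libraries had 0 counts. Its highest early disease library was early disease 4, which overlapped with Recovery 8. Its partner S100a8 was at 54.4, 419 and 1696 CPM in recovery and 0, 0.0547 and 73.5 CPM in early disease. S100a9 was just past the threshold with 6.61 ± 1.69 on the log2 scale (adjusted p = 0.0496), and S100a8 just short of it with 6.38 ± 1.70 (adjusted p = 0.0624). Camp, the granule antimicrobial peptide cathelicidin, was at 7.20, 102 and 444 CPM in recovery and at 0 in 4 of 7 early disease libraries, with 20.98 CPM in the highest, and rose by 6.74 ± 1.47 (adjusted p = 0.0192).

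Chil3, a chitinase-like protein of monocytes and neutrophils, was at 7.75, 94.9 and 490 CPM in recovery and at 0 in 4 early disease libraries, with a highest value of 9.22 CPM. It rose by 7.75 ± 1.41 (adjusted p = 0.00407), the largest log2 fold change among called genes. Ly6c2, a surface marker of inflammatory monocytes that immature neutrophils also carry, was at 0.500, 9.38 and 43.0 CPM in recovery and at most 1.82 CPM in early disease, and it rose by 6.03 ± 1.23 (adjusted p = 0.0115). Ccr2, the chemokine receptor that defines inflammatory monocytes, was at most 4.90 CPM in 6 recovery libraries and 17.2 CPM in Recovery 9, against 1.56, 2.15 and 3.66 CPM in early disease. Its log2 fold change of 0.94 ± 0.56 did not pass (adjusted p = 0.597). Cxcr2, the chemokine receptor of mature neutrophils, was at 1.48, 6.17 and 22.4 CPM in recovery and 0.123, 0.465 and 1.86 CPM in early disease, and rose by 3.92 ± 0.80 (adjusted p = 0.0115).

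Fn1, the matrix protein fibronectin and also a member of the monocyte list, behaved differently across the libraries. It was at 8.67, 25.6 and 41.4 CPM in recovery and 0.0484, 2.77 and 5.54 CPM in early disease, without overlap, and its highest library was Recovery 4, the lowest for Camp. It rose by 3.13 ± 0.66 (adjusted p = 0.0144). With the mean of the neutrophil markers added to the model its log2 fold change was 2.52, while that of Chil3 was 1.31, of Camp -0.28, of S100a9 -0.11 and of Ly6c2 -0.64.

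Neutrophil marker level and group ran together across the 14 libraries. In the model with the neutrophil marker mean, edgeR called 0 genes, with 786 at an unadjusted p under 0.05. Of the 104 higher genes, 76 kept at least 50% of their log2 fold change in that model, 28 kept less and 9 of these were below 0. The genes that make up the marker mean are part of that model, so their own values in it are fixed in part by its construction. Spp1 stayed at 3.52, H2-Aa at 3.39 and Igf1 at 3.15, against 3.60, 3.61 and 3.26 without the marker mean. The disease-associated list had a median of 1.07 with the marker mean and edgeR called 0 members, with 22 of 30 higher at an unadjusted p under 0.05.

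**Figure D3:**
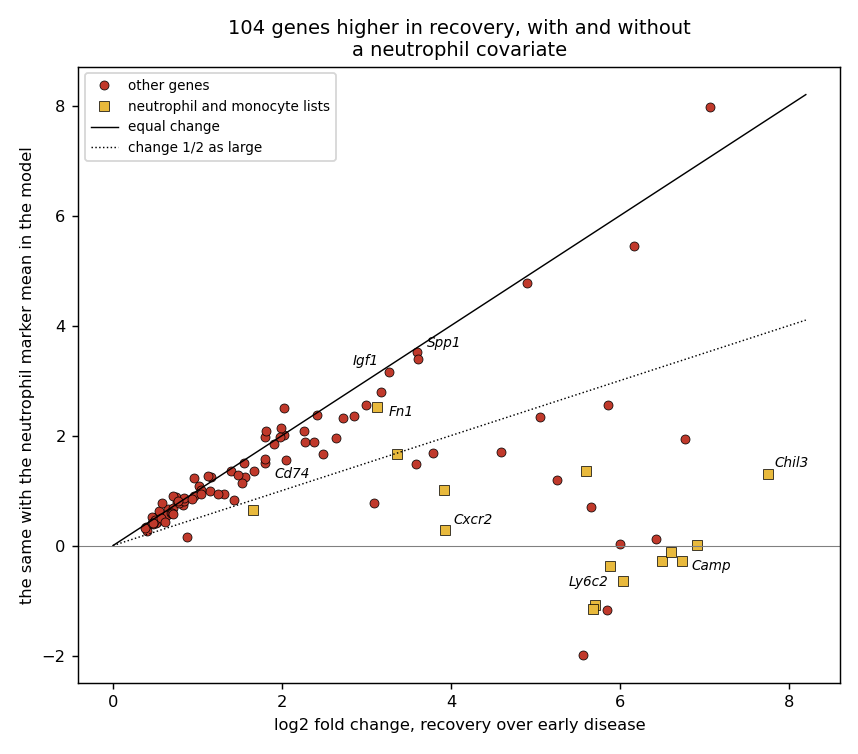
Log2 fold change of recovery over early disease for the 104 higher genes (horizontal) against the same with the neutrophil marker mean in the model (vertical). Squares are genes of the neutrophil and monocyte lists, the solid line marks an equal change and the dotted line a change of 50% of that size. Spp1 and Igf1 lie near the solid line, and Camp and Ly6c2 lie below 0.

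The same counts were taken without Recovery 3 and Recovery 9, a choice made after seeing the data. That left 24 genes higher and 1 lower, and 2 of the 30 disease-associated genes called, with a median of 1.11 for the list. Spp1 had a log2 fold change of 3.63 (adjusted p = 0.00749) and Cst7 of 2.51 (adjusted p = 0.0313). Itgax, with 1.71 (adjusted p = 0.0903), and Clec7a, with 1.80 (adjusted p = 0.111), were no longer called. The part of the smaller number of libraries in this was not tested.

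Genes of the lysosome gave few calls, all of small size. Of 33 lysosome and phagocytosis genes tested, 3 were higher and 0 lower, beside the 0.770% of all genes, the median was 0.23, and 30 had a log2 fold change above 0. The number called higher was 10 in the 14 libraries alone, beside 3.77% of all genes. It was 7 of 36 with DESeq2, beside 226 of 25565 genes. With limma on log2(TPM + 1) and log2(TPM + 0.1) it was 1 and 0, beside 128 and 94 of 13188 genes. Gusb, beta-glucuronidase, was at 561, 625 and 732 CPM in recovery and 445, 482 and 520 CPM in early disease. Every recovery library was above every early disease library, at a log2 fold change of 0.40 ± 0.08 (adjusted p = 0.00668). Grn, progranulin, also did not overlap and rose by 0.46 ± 0.12 (adjusted p = 0.0428).

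Further lysosomal genes outside the list were picked after their values were seen. Scpep1, a serine carboxypeptidase, was at 272, 285 and 374 CPM in recovery and 148, 173 and 200 CPM in early disease and rose by 0.76 ± 0.13 (adjusted p = 0.00201). Pld3, a lysosomal nuclease, rose by 0.71 ± 0.14 (adjusted p = 0.00724), and neither gene overlapped. Atp6v0c, the membrane ring subunit of the proton pump, rose by 0.48 ± 0.11 (adjusted p = 0.0226) with overlapping groups. Naglu, which degrades heparan sulphate, rose by 0.38 ± 0.09 (adjusted p = 0.0366). Without Recovery 3 and Recovery 9, 1 of the 3 list members stayed called.

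Glycolysis and hypoxia genes gave 4 calls among 23 tested, all higher, beside the 0.770% of all genes, with a median of 0.31. The fit of the 14 libraries alone called 7 higher and 1 lower, beside 3.77% and 1.06% of all genes. With limma, 1 was called higher on either log2 TPM scale, beside 128 of 13188 genes with a pseudocount of 1 and 94 with 0.1. Pkm, pyruvate kinase, was at 356, 369 and 517 CPM in recovery and 247, 266 and 351 CPM in early disease, without overlap, and rose by 0.51 ± 0.11 (adjusted p = 0.0195). Slc2a1, the glucose transporter GLUT1, rose by 0.51 ± 0.12 (adjusted p = 0.0296) and Tpi1, triosephosphate isomerase, by 0.56 ± 0.14 (adjusted p = 0.0426). Egln3, an oxygen-sensing prolyl hydroxylase, was at 2.95, 5.75 and 9.67 CPM in recovery and 0.184, 1.21 and 2.79 CPM in early disease and rose by 2.38 ± 0.55 (adjusted p = 0.0234). None of the 4 stayed past the threshold without Recovery 3 and Recovery 9.

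Ribosomal protein genes were higher by a small amount in nearly all cases, and few passed the test. Of 88 tested, 84 had a log2 fold change above 0. At an unadjusted p under 0.05, 70 were higher, beside 7.27% of all genes. The groups did not overlap for 40, against 1.13% of all genes. The list median was 0.47. Summed levels were 6362 to 8314 CPM in recovery and 4830 to 5872 CPM in early disease. Of the 3 called genes, beside 0.770% of all genes higher, Rpl26 and Rps28 are named here. The fit of the 14 libraries alone called 64, beside 3.77% of all genes higher. Rps28, a protein of the small subunit, was at 46.6, 60.6 and 79.3 CPM in recovery and 31.9, 37.9 and 41.7 CPM in early disease, without overlap, and rose by 0.72 ± 0.17 (adjusted p = 0.0338). Counts of ribosomal protein genes are shared with their many processed copies by estimation, which leaves single members uncertain.

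Rpl26 did not change evenly. It was at 43.4, 79.6 and 90.1 CPM in recovery and 6.54, 11.1 and 38.1 CPM in early disease, where 3 libraries lay between 37.0 and 38.1 CPM and the other 4 at 11.1 CPM or below. Its log2 fold change of 1.81 ± 0.42 (adjusted p = 0.0234) was far from the list median. Nuclear-encoded genes of oxidative phosphorylation gave 1 call among 75, beside the 0.770% of all genes, Cox6a1 of complex IV with 0.47 ± 0.12 (adjusted p = 0.0449), and a median of 0.25. Of these 75 genes, 72 had a log2 fold change above 0 and 38 were higher at an unadjusted p under 0.05, beside 7.27% of all genes. The fit of the 14 libraries alone called 16 higher, beside 3.77% of all genes. The 13 genes encoded by the mitochondrial genome had a median of 0.52, with 0 called by edgeR or DESeq2. At an unadjusted p under 0.05, 11 of the 13 were higher, beside 7.27% of all genes.

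**Figure D4:**
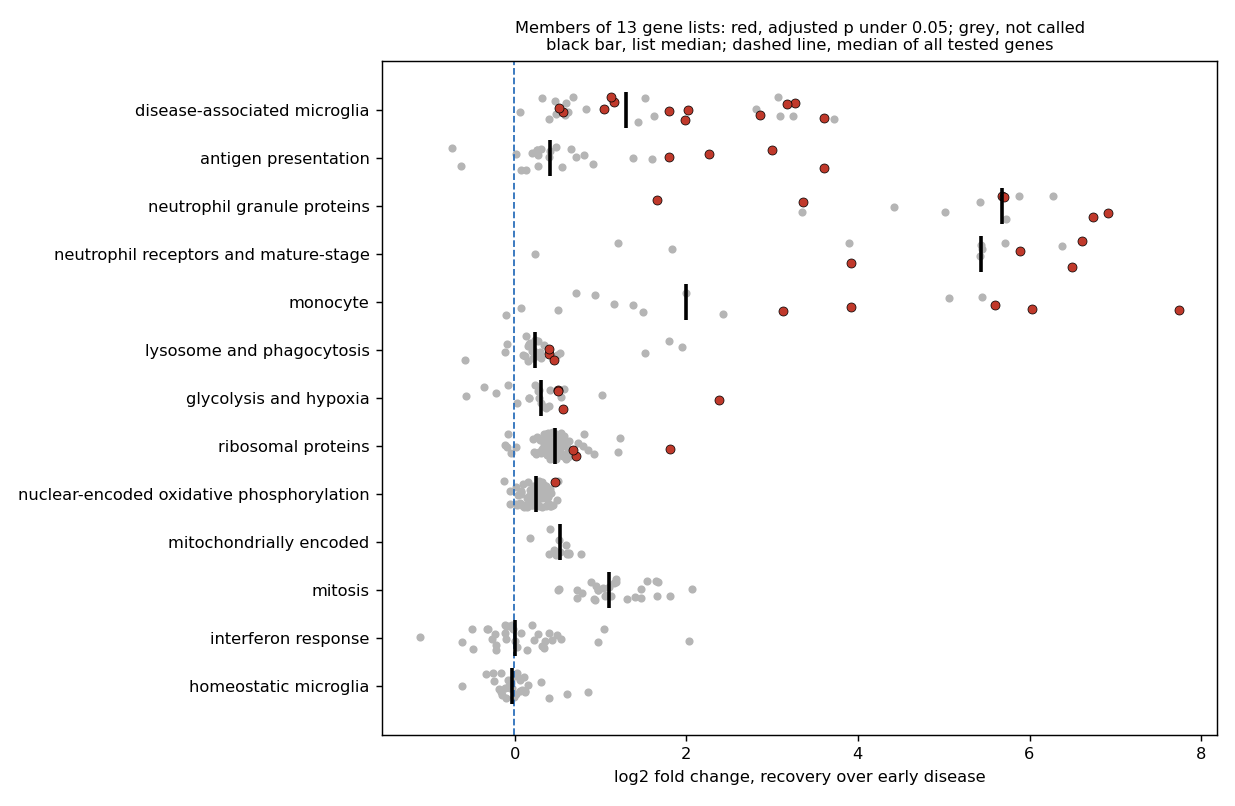
Log2 fold change of recovery over early disease for the tested members of 13 gene lists, 1 point per gene, red where the adjusted p was under 0.05, with a black bar at the list median and a dashed line at the median of all tested genes, -0.01. Disease-associated genes centre on 1.29 and neutrophil granule genes on 5.68, while homeostatic genes centre on -0.03.

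Reads of ribosomal RNA type differed between recovery and early disease and between the wild-type groups. CT010467.1, a stretch of chromosome 17 annotated as ribosomal RNA, was at 2741, 3066 and 4469 CPM in recovery and 1069, 1508 and 1818 CPM in early disease, without overlap, and rose by 1.16 ± 0.19 (adjusted p = 0.0012). The wild-type mice of date code 0810 were at 2246 to 2917 CPM and those of 1019 at 1305 to 1691 CPM. The mitochondrial ribosomal RNA mt-Rnr2 was at 1253, 1600 and 2214 CPM in recovery and 490, 824 and 993 CPM in early disease and rose by 1.04 ± 0.25 (adjusted p = 0.0366). These genes were picked after their values were seen, and the part of library preparation in them was not tested.

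Further called genes stood outside the lists above. Fam20c, a kinase of secreted phosphoproteins that include osteopontin, was at 45.8, 73.8 and 79.7 CPM in recovery and 5.28, 10.9 and 22.3 CPM in early disease and rose by 2.41 ± 0.41 (adjusted p = 0.00155). Chst2, a sulphotransferase of glycans, was at 30.4, 53 and 77.3 CPM in recovery and 7.20, 13.4 and 20.7 CPM in early disease and rose by 2.02 ± 0.41 (adjusted p = 0.0115). No early disease library reached the recovery range for either gene.

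Receptors and regulators were among them. Plaur, the urokinase receptor, was at 27.8, 39.3 and 52.5 CPM in recovery and 5.93, 11.9 and 20.45 CPM in early disease and rose by 1.67 ± 0.34 (adjusted p = 0.0108). Bhlhe40, a repressor that also acts in the circadian clock, was at 5.01, 11.5 and 28.5 CPM in recovery and 1.17, 2.71 and 4.82 CPM in early disease. It rose by 2.27 ± 0.43 (adjusted p = 0.00558). Among 17 tested clock genes, with a median of -0.10, it was the single call, beside 0.770% of all genes higher. The fit of the 14 libraries alone called 1 clock gene higher and 1 lower, beside 3.77% and 1.06% of all genes. The inhibitory receptor Cd22 rose by 1.48 ± 0.34 (adjusted p = 0.0234), the acid-sensing receptor Gpr65 by 1.55 ± 0.35 (adjusted p = 0.0211) and the niacin receptor Hcar2 by 1.43 ± 0.35 (adjusted p = 0.0366), all without overlap and all picked after their values were seen. Gpr65 reached 180 CPM in Recovery 4 and stood between 47.8 and 180 CPM in recovery, against 16.4 to 42.4 CPM in early disease.

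Hebp1, a haem-binding protein, split the early disease group. It was at 110, 149 and 262 CPM in recovery and 5.28, 7.26 and 94.8 CPM in early disease. Early disease 4 and early disease 8 were at 90.6 and 94.8 CPM, and the other 5 early disease libraries were at 9.08 CPM or below. The rise of 2.73 ± 0.57 (adjusted p = 0.0143) therefore set recovery apart from 2 different levels within early disease, while the 7 wild-type libraries of the same diets held 79.2 to 147 CPM.

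Among called genes, 3 were lower in recovery. Alkbh5, an RNA demethylase (chr11:60536381-60558512), was at 36.6, 38.7 and 63.8 CPM in recovery and 65.2, 87.0 and 104 CPM in early disease, without overlap, and fell by 0.90 on the log2 scale (SE 0.20, adjusted p = 0.0213). Prkca, protein kinase C alpha, was at 14.2, 19.1 and 26.2 CPM in recovery and 25.7, 31.2 and 36.9 CPM in early disease and fell by 0.72 (SE 0.16, adjusted p = 0.0206). Tom1l1, an adaptor of endosomal sorting, was at 25.1, 35.2 and 66.6 CPM in recovery and 64.0, 76.4 and 101 CPM in early disease and fell by 0.93 (SE 0.21, adjusted p = 0.0236). Recovery 9 was the highest recovery library for all 3 genes and the one that reached the early disease range for Prkca and Tom1l1.

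Cell division genes were higher on average but passed in no member. All 29 mitosis genes tested had a log2 fold change above 0, with a median of 1.10, edgeR and DESeq2 called 0 of them, and 7 were higher at an unadjusted p under 0.05, beside 7.27% of all genes. Summed over the list, recovery libraries were at 85.2, 149 and 691 CPM and early disease libraries at 50.8, 113 and 188 CPM. Recovery 2 alone held 691 CPM, and the other recovery libraries overlapped with early disease. Mki67, the proliferation antigen, was at 2.37, 6.75 and 35.5 CPM in recovery and 1.11, 3.38 and 8.81 CPM in early disease, with a log2 fold change of 1.12 ± 0.85 (adjusted p = 0.714).

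Interferon-induced genes gave no calls. Of 35 tested, edgeR and DESeq2 called 0. At an unadjusted p under 0.05, 2 were higher and 1 was lower, beside 7.27% and 3.60% of all genes. The list median was 0.00, or -0.20 on the log2(TPM + 1) scale. Among 27 inflammatory cytokine and NF-kB genes, 1 was called, the chemokine Ccl5 with 1.90 ± 0.48 (adjusted p = 0.0466), and the median was 0.02. Il1b, interleukin 1 beta, was at 1.95, 7.73 and 11.8 CPM in recovery and 1.74, 5.27 and 16.0 CPM in early disease (log2 fold change 0.13 ± 0.58, adjusted p = 0.974). Of 14 complement genes, 2 were called higher, Itgax and C3, the central complement protein. The share of all genes called higher was 0.770%. The 14 libraries alone gave 3 higher calls in the inflammatory list and 4 in the complement list, beside 3.77% of all genes. C3 was at 5.78, 15.6 and 55.5 CPM in recovery and 0.174, 0.581 and 9.28 CPM in early disease, and rose by 3.79 ± 0.85 (adjusted p = 0.0206).

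Markers of T and NK cells, mural cells, fibroblasts and neurons were near 0. T and NK cell markers summed to at most 7.24 CPM in any recovery library and 1.70 CPM in any early disease library, with 8 of 16 at 0 in all 14 libraries, Cd3e and Ncr1 among them. Mural and fibroblast markers summed to at most 2.98 CPM in recovery and 1.86 CPM in early disease, and neuron markers to at most 3.83 and 2.83 CPM. Erythroid markers summed to 97.3 CPM in Recovery 3, one of the libraries richest in neutrophil markers, and to at most 0.656 CPM in the other 6 recovery libraries and 6.68 CPM in early disease. Larger sums in other lists came from single genes. Slc1a3, a glutamate transporter that gave 99.3% of the astrocyte sum, was at 1019 to 2712 CPM in recovery and 158 to 1526 CPM in early disease. Trf gave 91.2% of the oligodendrocyte sum, Bsg 95.3% of the endothelial sum, Ighm 93.4% of the B cell sum and Siglech 98.3% of the dendritic cell sum. Tested in these 5 lists were 8 astrocyte, 6 oligodendrocyte, 4 endothelial, 2 B cell and 7 dendritic cell genes, and edgeR called 0 of them. At an unadjusted p under 0.05, 2 of the 4 endothelial genes were higher and 1 was lower. At that p, 1 oligodendrocyte gene was higher, 1 dendritic cell gene was lower, and no astrocyte or B cell gene passed. The shares of all genes were 7.27% higher and 3.60% lower. DESeq2 called 2 endothelial genes higher. Border macrophage markers summed to 415 to 681 CPM in recovery and 603 to 721 CPM in early disease. Of 14 tested, edgeR called 0, DESeq2 called 1 higher, and 10 had a log2 fold change above 0, with a median of 0.78. At an unadjusted p under 0.05, 2 of the 14 were higher, beside 7.27% of all genes. Oligodendrocyte precursor markers did not overlap, with 3.17 to 13.1 CPM in recovery and 0.407 to 1.76 CPM in early disease, of which Cspg4 gave 84.0%, and their part in the results was not tested.

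The genes of the antigens used for sorting, Itgam (CD11b) and Ptprc (CD45), had log2 fold changes of 0.07 ± 0.13 and 0.04 ± 0.11 (adjusted p = 0.912 and 0.951).

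Males and females were compared for the same difference. A test of whether the change differed between the sexes called 0 of 12493 genes by edgeR, with 618 at an unadjusted p under 0.05. The median of the disease-associated list was 1.81 in males alone and 0.91 in females alone, with 3 against 3 and 4 against 4 libraries. In either sex edgeR called 0 members, and 23 and 24 of 30 were higher at an unadjusted p under 0.05. Over all genes, 558 of 13687 in males and 1384 of 13900 in females were at that p in either direction. The median of the mitosis list was 2.26 in males, a group that includes Recovery 2, and 0.13 in females.

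Wild-type mice had been through the same diets and timing without the transgenes. The share of TPM outside the deposited table was 13.9035 to 15.1895% in those 6 weeks off and 1 week on. It was 3.764 to 11.4434% in those 2 weeks off. In the disease groups it was 4.0892 to 8.8607% in recovery and 3.012 to 5.524% in early disease. The part of this share in the comparison with wild-type mice was not tested. Of the date codes of the 2 disease groups, the wild-type mice compared shared 1019 only, so the date code cannot be told apart from the group in this test either. The difference between recovery and early disease was set against the difference between wild-type mice 6 weeks off and 1 week on (date code 0810) and wild-type mice 2 weeks off (date code 1019). In that test of the 2 differences, 37 of 13940 genes were higher (0.265%) and 3 were lower (0.0215%), 40 in all (0.287%). Of these 40, 9 were also called between recovery and early disease, 19 between the wild-type groups and 12 in neither comparison. All 107 genes called between recovery and early disease were tested here, and 9 were called. In the wild-type mice alone, 17 genes were higher (0.122%) and 90 lower (0.646%) after 6 weeks off and 1 week on. The 40 calls of the test of the differences were sensitive to single libraries. They numbered 15 without the wild-type library Control 3, 25 without Control 2, 19 without Control 11, 21 without Control 13 and 79 without Control 12. They numbered 23, 23, 17 and 65 without Recovery 5, 7, 9 and 8, and 15, 15 and 16 without early disease 1, 5 and 6.

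Apoe differed in opposite directions in the 2 pairs of groups. In wild-type mice it was at 29.5 to 53.4 CPM after 6 weeks off and 1 week on and 204 to 1116 CPM after 2 weeks off, a log2 fold change of -3.69 (adjusted p = 0.0128). Set against the 2.82 of recovery over early disease, the difference of the differences was 6.58 ± 0.85 (adjusted p = 0.00212). Spp1 was at 19.5 to 35 CPM and 66.4 to 99.6 CPM in the same wild-type groups, a log2 fold change of -1.56 (adjusted p = 0.295), and its difference of the differences was 5.12 ± 0.91 (adjusted p = 0.0162). Axl was at 11.5 to 43.9 CPM and 88.9 to 136 CPM there, and its difference of the differences was 3.53 ± 0.61 (adjusted p = 0.0162). For all 3 genes the wild-type mice 6 weeks off and 1 week on lay below those 2 weeks off, and those 2 weeks off overlapped with early disease.

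Secreted, glycan and receptor genes were also called in this test. Lyz2 had a difference of the differences of 3.94 ± 0.68 (adjusted p = 0.0162), Fam20c 3.23 ± 0.56 (adjusted p = 0.0162), Chst2 2.58 ± 0.52 (adjusted p = 0.0326) and Hcar2 2.54 ± 0.49 (adjusted p = 0.0319). For the class II genes the wild-type groups overlapped, and the test was not passed by Cd74, at 2.33 ± 0.54 (adjusted p = 0.0627), or by H2-Aa, at 2.85 ± 0.98 (adjusted p = 0.2001). Pou2f2, a transcription factor of lymphoid and myeloid cells, had a difference of the differences of 1.15 ± 0.18 (adjusted p = 0.00553), with -1.41 in the wild-type mice and -0.26 ± 0.24 for recovery over early disease (adjusted p = 0.781). The 3 genes called lower were Hmbox1 with -1.30 ± 0.23, Rrm2b with -1.40 ± 0.27 and Pygb with -0.77 ± 0.15 (adjusted p = 0.0162, 0.0319 and 0.0319), and each had a higher median in the wild-type mice 6 weeks off and 1 week on than in those 2 weeks off.

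**Figure D5:**
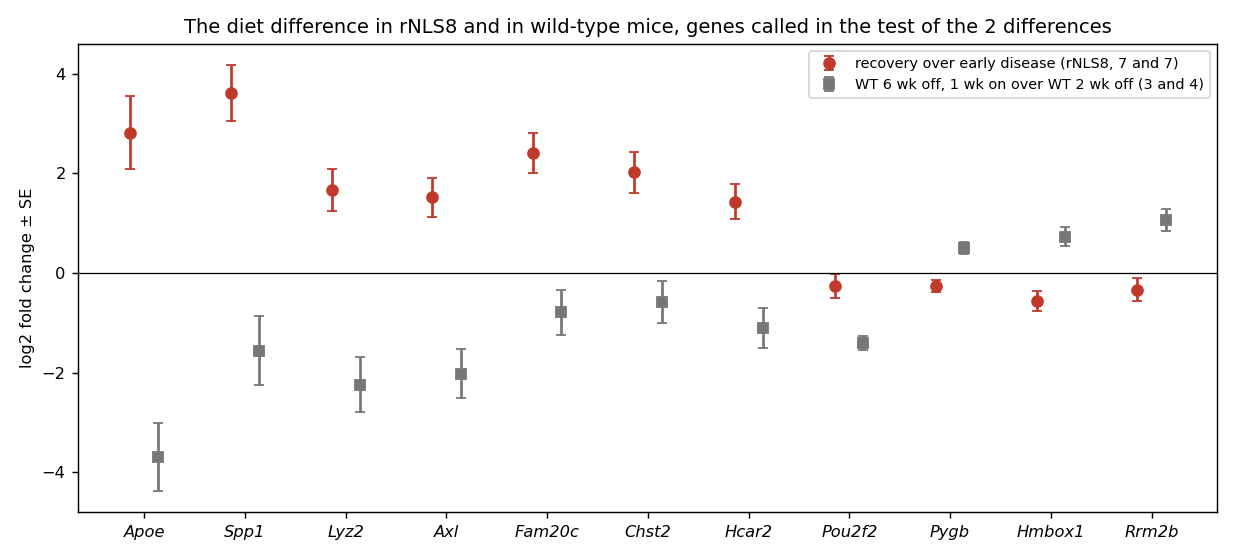
Log2 fold change with its SE for recovery over early disease (red circles, 7 and 7 libraries) and for wild-type mice 6 weeks off and 1 week on over wild-type mice 2 weeks off (grey squares, 3 and 4 libraries), for 11 genes called in the test of the 2 differences. Apoe stands at 2.82 in the first and -3.69 in the second.

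Late disease mice had been off doxycycline as long as recovery mice but were never returned to it, and the values of the 3 disease groups are given side by side. These comparisons share libraries and are not independent. Spp1 had a median of 849 CPM in recovery, 402 CPM in late disease and 49.7 CPM in early disease, with a log2 fold change of recovery over late disease of 0.59 (adjusted p = 0.608). Csf1 had medians of 81.4 CPM in recovery, 113 CPM in late disease and 30.0 CPM in early disease. In recovery against late disease, edgeR called 0 of the 30 disease-associated genes and 1 was higher at an unadjusted p under 0.05, with a list median of 0.30, beside 0.341% of all genes higher and 0.244% lower. In late against early disease it called 8 of the 30 higher, with a median of 1.29, beside 0.600% of all genes.

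The neutrophil genes differed between recovery and late disease as well. The granule list summed to 669 to 6220 CPM in recovery, 338 to 1123 CPM in late disease and 178 to 779 CPM in early disease. Of its 13 tested genes, from 19 listed, 6 were higher in recovery than in late disease, beside 0.341% of all genes, with a median of 5.48. Members can pass the filter on low counts through the recovery libraries alone, so this median describes only those that passed. As against early disease, folds fitted at or near 0 counts depend on the small count that the fit adds. Camp had a median of 102 CPM in recovery and 0 CPM in late disease, where late disease 4 was the highest library at 20.98 CPM, at a log2 fold change of 6.29 (adjusted p = 0.0312). Late disease libraries carried the date codes of the early disease libraries, so the date code cannot be told apart from recovery here either.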

How the data were processed

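The authors deposited estimated (expected) counts per gene, and TPM for the same 45706 genes, for 35 libraries of mouse spinal cord microglia. RSEM, DESeq2 and the build mm10 are named per the submitters' processing notes, without versions. Cells were sorted on CD11b and CD45, and SMART-Seq cDNA and Nextera XT libraries, which do not mark strand, gave paired-end reads, per the labels' protocols. Counts of effective alignments per library, and the sex and date code of each mouse, came from a deposited table. No molecular identifiers are named, so precision refers to fragments.

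Of the deposited expected counts 84.67% were whole, and all were rounded before testing. Symbols and mm10 coordinates from GENCODE vM21 matched 45143 genes by identifier. Groups followed the phenotype label. Nothing in the labels beyond separate titles says how far replicates were processed apart, so p-values measure the spread between these libraries. The sex labels of 2 control libraries differed from the deposited table, and the labels were kept.

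The main test was that of edgeR 4.0.16, run in R 4.3.3 (TMM, the package's filter by group, quasi-likelihood F test, group and sex, Benjamini-Hochberg over all tested genes, threshold 0.05). SEs were derived from the F statistic. The difference of differences used 21 libraries and the sex interaction 14. Alternatives were DESeq2 1.42.0, limma 3.58.1 on log2 values computed from the deposited TPM with pseudocounts of 1 or 0.1, other scaling, filters, covariates and sets of libraries. The code was tested on simulated data. The libraries compared, the 40 gene lists and the alternatives were chosen with earlier results of these data known. Genes were named by rule: the 15 largest called changes each way without overlap and with at least 10 CPM in the higher group, the 6 smallest p each way in both tests, the 4 smallest p of each list, and 35 fixed genes. Exceptions, named after their values were seen, are Cybb, Ctsb, Cd63, Ank, Lyz2, the leading genes of the other cell types and those marked in the text. Some genes that the rule names are not reported here. Same-numbered recovery and early disease libraries did not deviate together, so no block was used.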

Additional observations from a re-analysis of the deposited data

Results flagged for a closer look

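Single libraries stood apart from their own group for 22 of 170 gene or list levels examined with Dixon's test in groups of 7, and chance gives about 1 in 20. Early disease 4 accounted for 7 of them, with 20.98 CPM of Camp, 73.51 of S100a8, 50.24 of S100a9, 1.822 of Ly6c2, 9.284 of C3, 19.39 of Ch25h and 34.55 of H2-Ab1, each the highest early disease level.

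Recovery 9 was the highest of its group for Ccr2 at 17.16 CPM, Cd63 at 908.1 CPM, Grn at 6282 CPM and Scpep1 at 374 CPM, and for the summed disease-associated list at 71024 CPM and the antigen presentation list at 13992 CPM. Recovery 2 stood out for Mki67 at 35.52 CPM and the mitosis list at 691.4 CPM. Recovery 3 held 97.27 CPM of erythroid markers and early disease 5 held 6.681 CPM. Other levels apart from their group were Gpr65 at 179.7 CPM in Recovery 4, Csf1r at 16380 CPM in Recovery 5, Slc2a1 at 163.9 CPM and Trf at 2662 CPM in Recovery 7, and Fabp5 at 3.172 CPM in early disease 3.

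The difference between recovery and early disease differed from that between the wild-type groups for 14 of the genes named. On the log2 scale the difference of the differences was 6.58 for Apoe, 5.12 for Spp1, 3.94 for Lyz2, 3.53 for Axl, 3.23 for Fam20c, 2.58 for Chst2, 2.54 for Hcar2, 1.15 for Pou2f2, -0.77 for Pygb, -1.30 for Hmbox1 and -1.40 for Rrm2b. It was 13.34 for Chil3, 10.32 for C3 and 6.88 for Cxcr2, which had wild-type libraries at or near 0 counts, so these 3 values depend on the small count that the fit adds and bound nothing.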

How the results depend on the processing

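The 107 calls numbered 126 with RLE scaling, 90 without the sex term, 129 with the share of TPM outside the table in the model and 110 with the sexes of the deposited table. They numbered 162 with no filter on low counts, 239 with DESeq2 (104 of the 107 among them) and 603 in the 14 libraries alone. They numbered 0 with the neutrophil marker mean, where Camp was at -0.28, S100a9 at -0.11 and Ly6c2 at -0.64 on the log2 scale. They numbered 1 in males, 0 in females, 1, 5 and 2 against early disease of the date codes 1019, 1102 and 1130 alone, and 25 without Recovery 3 and 9. Replicate numbers 3, 4, 5, 7 and 8 occur in both groups, but same-numbered libraries correlated at -0.169 to 0.065 and 1 of 5 matched best with its own number. A replicate block over these 10 libraries called 8 genes, against 6 in the same 10 libraries with no block, a choice made after seeing the data. Leaving out 1 library gave 38 to 124 calls. The 40 calls of the difference of differences numbered 38 with RLE scaling, 32 without the sex term, 134 with no filter, 339 with DESeq2, 7 with early disease of date code 1019 alone, and 15 to 79 with 1 library left out. Causes of these shifts, the number of libraries or genes each setting holds among them, were not tested.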
